A study of Mus musculus with 22 samples.

Results

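The 11 splenic monocyte libraries of this 22-library mouse series were divided into a granulocyte-rich set, Monocytes 5, 6, 10 and 11, and a granulocyte-poor set, Monocytes 1, 2, 3, 4, 7, 8 and 9. The members were chosen by measured transcripts of these same libraries, the neutrophil genes Ngp, S100a8 and S100a9. The difference between the sets is therefore given as a description, without a test. All 11 libraries came from spleen cells of male wild-type C57BL/6 mice that the labels call primary monocytes and that were kept in RPMI medium. Monocytes 1 to 6 received vehicle and Monocytes 7 to 11 received ox-LDL at 50 µg/mL over 24 hours. This is oxidized low-density lipoprotein, a modified particle that phagocytes take up and store as lipid. The other 11 libraries are macrophages made from such cells with phorbol ester (PMA, 200 ng/mL for 5 days), and enter only as side values. The labels name no sort or gate for the monocytes. They do not say whether numbered libraries came from separate mice or cultures.

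The granulocyte-rich set holds 2 vehicle and 2 ox-LDL libraries, and the granulocyte-poor set 4 and 3, and no link between set and treatment was detected (Fisher's exact test, two-sided, p = 1). Within each treatment the rich libraries carry the highest numbers in the titles. What the numbers stand for is not given, so a shared day or preparation and the granulocyte content cannot be told apart. Totals ran from 38870065 to 48791656 assigned reads per library, with 22633 to 24309 genes counted and 0.206% to 0.335% of reads on mitochondrial genes. In bulk RNA, fewer cells of a type and less RNA per cell cannot be told apart.

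Neutrophils are short-lived phagocytes whose granule proteins are made in a fixed order during maturation. Primary granule enzymes such as myeloperoxidase come first, specific granule proteins such as lactoferrin and the Ngp and Camp products follow, and gelatinase, surface receptors and the S100a8 and S100a9 alarmins mark the later stages. The spleen also holds a store of monocytes, red pulp macrophages that clear old red cells, and several kinds of dendritic cell. C/EBP-epsilon, encoded by Cebpe, is a transcription factor needed for specific granule genes.

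The promoters of 6 neutrophil genes with large differences are shown because members of the C/EBP family act at such genes. Each line is the 250 bases before the start in the RefSeq table for GRCm38.p6, 5′ to 3′ on the gene's strand. Capitals mark matches to TTGCNNAA on either strand, a C/EBP-like motif. The stretches are chr9:110419558-110419807 (Ngp, plus strand), chr3:90695722-90695971 (S100a9, minus strand), chr9:111019042-111019291 (Ltf, plus strand), chr9:7558179-7558428 (Mmp8, plus strand), chr9:109849457-109849706 (Camp, minus strand) and chr3:90668821-90669070 (S100a8, plus strand).
Ngp: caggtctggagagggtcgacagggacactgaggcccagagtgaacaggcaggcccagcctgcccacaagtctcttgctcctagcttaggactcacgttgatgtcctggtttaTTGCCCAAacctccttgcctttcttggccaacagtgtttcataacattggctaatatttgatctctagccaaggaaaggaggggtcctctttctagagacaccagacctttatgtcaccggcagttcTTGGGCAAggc
S100a9: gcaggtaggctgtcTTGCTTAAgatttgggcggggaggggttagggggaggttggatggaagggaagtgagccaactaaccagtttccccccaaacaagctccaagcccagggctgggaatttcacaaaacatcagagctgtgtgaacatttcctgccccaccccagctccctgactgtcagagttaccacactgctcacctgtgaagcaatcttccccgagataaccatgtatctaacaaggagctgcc
Ltf: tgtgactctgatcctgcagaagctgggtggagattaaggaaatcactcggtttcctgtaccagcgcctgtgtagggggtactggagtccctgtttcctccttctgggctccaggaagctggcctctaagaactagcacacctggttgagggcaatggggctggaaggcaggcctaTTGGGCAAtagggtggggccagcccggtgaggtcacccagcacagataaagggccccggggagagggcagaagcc
Mmp8: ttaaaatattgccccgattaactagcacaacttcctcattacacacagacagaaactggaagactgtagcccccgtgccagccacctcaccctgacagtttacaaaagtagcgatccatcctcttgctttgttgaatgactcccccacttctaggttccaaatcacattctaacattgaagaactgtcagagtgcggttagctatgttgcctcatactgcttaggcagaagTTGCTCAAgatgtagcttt
Camp: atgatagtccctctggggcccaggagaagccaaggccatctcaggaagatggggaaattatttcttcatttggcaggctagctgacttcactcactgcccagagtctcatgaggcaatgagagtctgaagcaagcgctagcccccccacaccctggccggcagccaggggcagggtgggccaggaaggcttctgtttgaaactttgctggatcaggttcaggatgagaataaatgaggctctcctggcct
S100a8: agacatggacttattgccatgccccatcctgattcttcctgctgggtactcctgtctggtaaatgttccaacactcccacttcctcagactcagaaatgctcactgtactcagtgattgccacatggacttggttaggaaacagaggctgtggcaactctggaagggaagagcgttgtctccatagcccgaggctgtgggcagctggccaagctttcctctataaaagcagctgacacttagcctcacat

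Ngp carried matches 138 and 11 bases before its start, Ltf 1 at 75 bases, Mmp8 1 at 19 bases and S100a9 1 at 236 bases. Camp and S100a8 had no match in this stretch. In windows reaching 250 bases before to 50 after the start, TTGCNNAA was present in 5 of 11 specific granule promoters (45.5%) and 6 of 26 mature neutrophil promoters (23.1%). For all genes counted higher in the rich libraries it was present in 95 of 677 promoters (14.0%), and for those counted lower in 6 of 150 (4.0%). Over the promoters of all tested genes it was present in 1217 of 13745 (8.85%). The letters GAGGAA, the core of PU.1-like sites, were present in 63.6% of the specific granule promoters and in 27.6% of all. The shares were 34.1% for the genes counted higher and 30.7% for those counted lower. A match is a string of letters and says nothing about binding in these cells.

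Across 17136 genes with enough counts, a gene was counted as higher where the fitted fold between the sets was at least 2 and each of the 4 rich libraries lay above each of the 7 poor libraries. By this rule 746 genes (4.35%) were higher in the rich libraries and 151 (0.881%) were lower. The sets did not overlap for 1733 genes (10.1%) in either direction, whatever the fold. At least 4-fold differences numbered 257 higher and 22 lower, and at least 8-fold differences 29 and 8. The median log2 difference over all genes was -0.01. Within the vehicle libraries alone, 2 against 4, the same rule counted 1014 genes higher and 663 lower. Within the ox-LDL libraries alone, 2 against 3, it counted 1341 and 453. Fewer libraries separate more readily by their order alone, so these counts are not comparable with those from all 11 libraries.

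The 746 higher genes took 10.9% to 12.8% of all reads in the rich libraries and 3.28% to 3.80% in the poor libraries. The 151 lower genes took 0.131% to 0.187% and 0.337% to 0.607%. Neutrophil list members accounted for 4.26% to 5.76% of reads in the rich and 0.843% to 1.00% in the poor libraries. Every poor library thus also held reads of these genes. Of the summed gain of 92488 CPM (counts-per-million, scaled by the trimmed mean of M-values, TMM) over the 746 genes, 50.3% lay in the 10 genes with the largest gains, and 47.2% in the 41 neutrophil list members counted higher. Both groups hold Ngp, S100a8 and S100a9, on which the sets were chosen, with gains of 7441, 7286 and 7242 CPM. These shares are therefore a description and no evidence. Outside every list stood 679 of the higher and 142 of the lower genes.

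**Figure D1:**
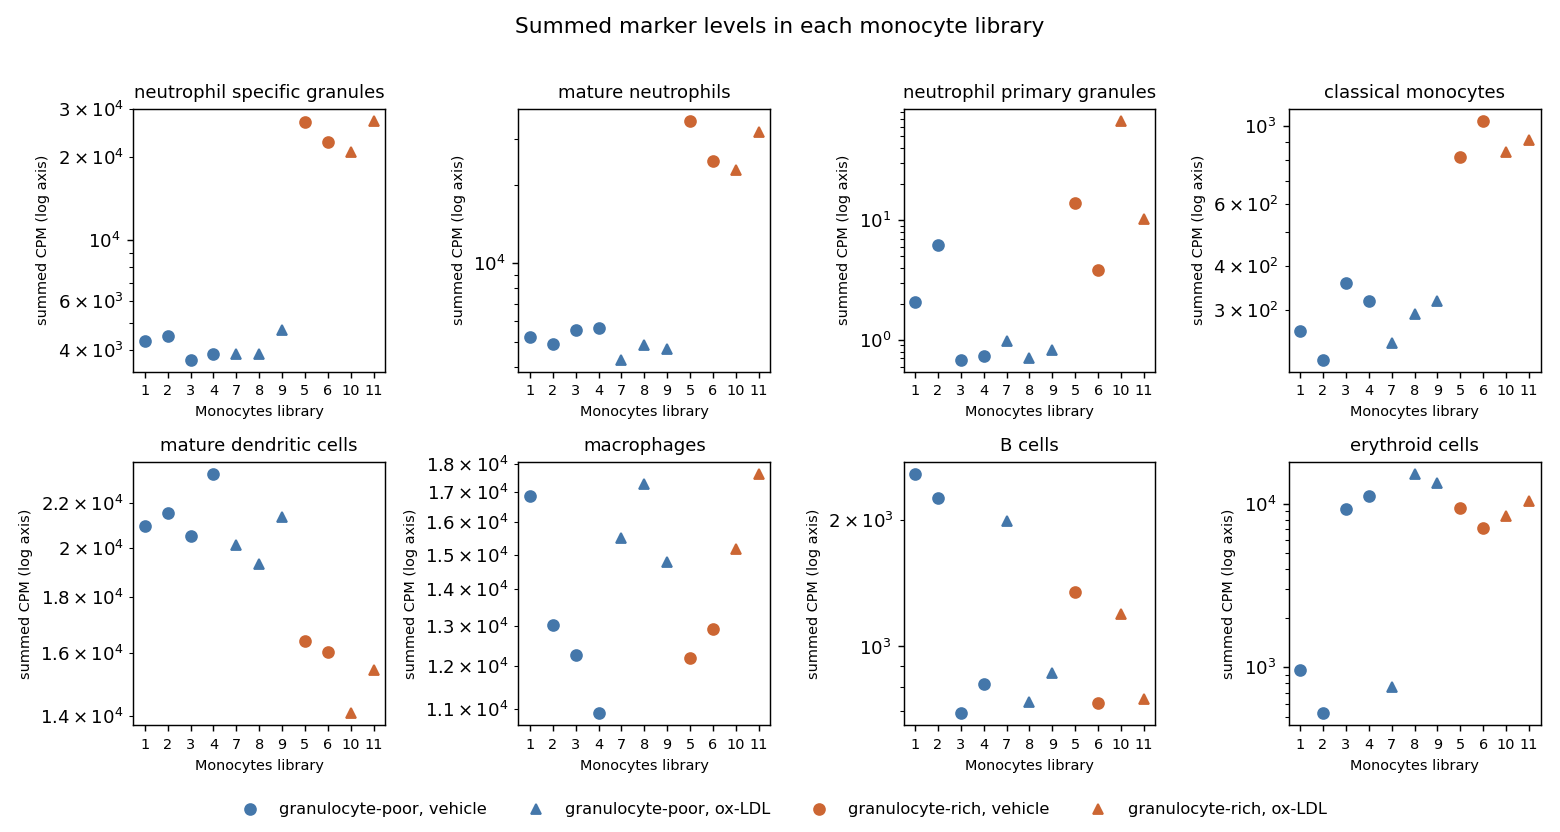
Summed CPM (log axis, scale differing by panel) of 8 marker lists in each monocyte library, with granulocyte-poor libraries in blue, granulocyte-rich libraries in orange, circles for vehicle and triangles for ox-LDL. The rich libraries lie above all poor libraries for specific granules (20806 to 27152 against 3677 to 4718), mature neutrophils and classical monocytes, below them for mature dendritic cells, and among them for macrophages, B cells and erythroid cells. The specific granule sum holds Ngp, and the mature neutrophil sum S100a8 and S100a9. The sets were chosen on these genes, so the separation of these sums is no evidence.

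All 12 specific granule genes passed the filter on low counts, also in the poor libraries alone, and all 12 were counted higher, with a median log2 difference of 2.52 beside -0.01 for all genes. The sets were chosen on Ngp, a member of this list, so its count beside the 4.35% of all genes is a description and no evidence. Ngp, a cathelicidin-related granule protein, measured 1566, 1586, 1298, 1349, 1318, 1337 and 1762 CPM in Monocytes 1, 2, 3, 4, 7, 8 and 9. It measured 10473, 7803, 6844 and 10481 CPM in Monocytes 5, 6, 10 and 11. The gap lay between 1762 and 6844 CPM, with Monocytes 9 the highest poor library and Monocytes 10 the lowest rich library. The means were 8900 ± 1862 (SD, n = 4) and 1459 ± 179 CPM (SD, n = 7), a fitted 6.10-fold difference.

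Ltf, which encodes the iron-binding lactoferrin, measured 5408, 5310, 4877 and 5117 CPM in Monocytes 5, 6, 10 and 11. Its poor libraries lay between 729 and 1045 CPM, with a median of 846. The rich libraries were close to each other for this gene, unlike for Ngp. Camp, the cathelicidin antimicrobial peptide gene, measured 2096, 1439, 1434 and 1985 CPM in the rich and 202 to 291 CPM in the poor libraries. Lcn2, whose product binds bacterial siderophores, had the largest difference of the list, with 1781, 1394, 981 and 1374 CPM against 87.7 to 260 CPM. Fcnb, a ficolin, had the smallest difference, a log2 value of 2.00, at 10.1 to 14.0 CPM against 1.85 to 4.20 CPM. Mmp8 (neutrophil collagenase), Cd177, Chil3 and Olfm4 lay between these extremes, with log2 differences of 2.25, 2.48, 2.37 and 2.36.

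Of 30 mature neutrophil genes, 29 were tested and 25 of these passed the filter in the poor libraries alone. Of the 29, 27 were counted higher, beside 4.35% of all genes, with a median log2 difference of 2.66. This list holds S100a8 and S100a9, on which the sets were chosen, so nothing is read from its count. S100a8 measured 10127, 6300, 6149 and 10371 CPM in Monocytes 5, 6, 10 and 11, and 695 to 1189 CPM in the poor libraries. S100a9, its partner in the calprotectin dimer, measured 10698, 6386, 6441 and 9150 CPM, and 748 to 1086 CPM in the poor libraries. For both, the lowest rich library lay several-fold above the highest poor library, and Monocytes 5 and 11 exceeded Monocytes 6 and 10. Ly6g, the gene of the surface antigen commonly used to identify mouse neutrophils, measured 144, 87.5, 71.5 and 103 CPM against 8.38 to 15.3 CPM. Retnlg, a resistin-like secreted protein, measured 5626, 2971, 2455 and 3644 CPM against 372 to 522 CPM.

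Cxcr2, the chemokine receptor that guides neutrophils from marrow to tissue, measured 529, 401, 310 and 337 CPM in the rich and 47.4 to 90.3 CPM in the poor libraries. Csf3r, the receptor for granulocyte colony-stimulating factor, differed less, with a log2 value of 1.73 at 566, 721, 590 and 619 CPM against 143 to 242 CPM. Il1r2, a decoy receptor for interleukin-1, had the smallest difference among the genes counted higher in this list, a log2 value of 1.22. Mmp9, the gelatinase, measured 3157, 3716, 3214 and 3600 CPM against 471 to 694 CPM. Mxd1 and Asprv1 were the members not counted, with log2 differences of 0.24 and 0.20. Mxd1 measured 997 to 1420 CPM in the rich and 849 to 1309 CPM in the poor libraries, and Asprv1 232 to 491 and 209 to 373 CPM, so the sets overlapped for both. The stefin genes Stfa1, Stfa2, Stfa3 and Stfa2l1 are near-identical copies whose reads may be split between them, and their separate values are uncertain.

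Within the rich set the 34 neutrophil genes counted higher with a mean of at least 5 CPM did not follow a single order. Monocytes 5 was the highest of the 4 libraries for 18 of the 34 genes, Monocytes 11 for 8, Monocytes 6 for 6 and Monocytes 10 for 2. Monocytes 10 was the lowest for 23. The highest rich library exceeded the lowest by 1.09-fold to 2.29-fold, with a median of 1.53-fold. Within the poor set that ratio had a median of 1.62-fold. The lowest rich library stood above the highest poor library by a median of 3.84-fold. That this ratio exceeded 1 for each of the 34 genes follows from how they were counted.

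**Figure D2:**
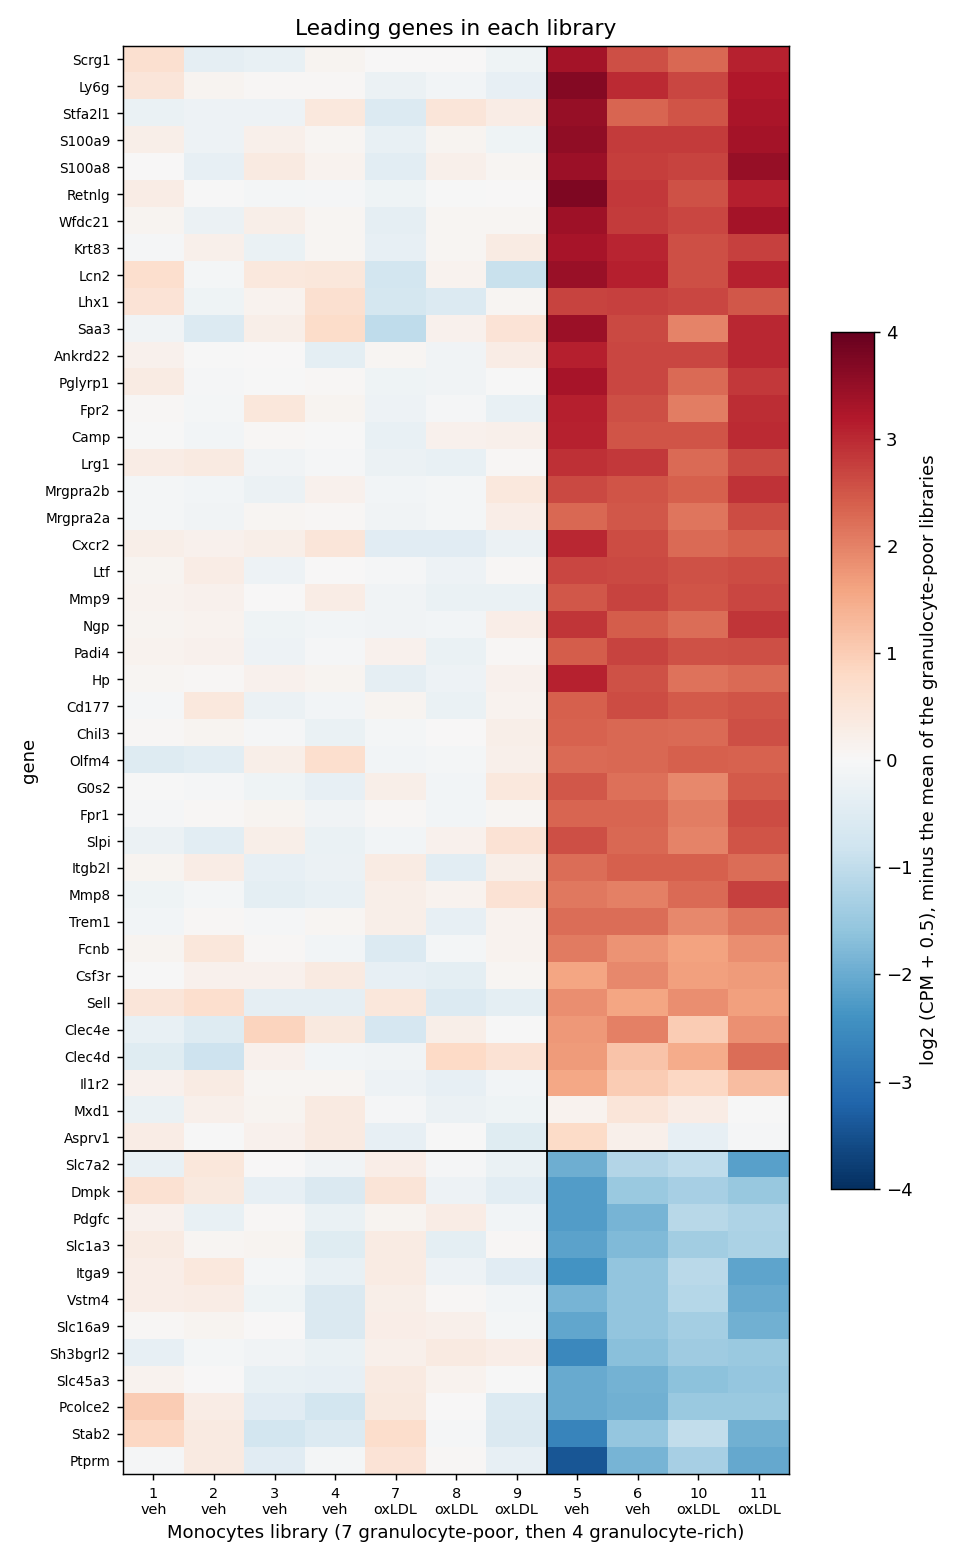
Colour shows log2 (CPM + 0.5) of each gene minus its mean in the granulocyte-poor libraries, with 7 poor and then 4 rich libraries as columns; rows above the line are neutrophil list members and the 12 highest genes, and rows below it the 12 lowest. Mxd1 and Asprv1 stay near 0 in all 11 libraries. The other rows above the line and the rows below it separate the sets, which follows from how they were counted.

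The 12 highest genes by the naming rule were Scrg1, Ly6g, Stfa2l1, S100a9, S100a8, Retnlg, Wfdc21, Krt83, Lcn2, Lhx1, Saa3 and Ankrd22, with log2 differences from 3.28 down to 2.99. Of these, 5 are in no list: Scrg1, Krt83, Lhx1, Saa3 and Ankrd22. Krt83, a hair keratin gene, measured 36.4, 30.5, 22.1 and 24.2 CPM in the rich and 2.50 to 4.18 CPM in the poor libraries. Lhx1, a LIM homeobox transcription factor, measured 12.4, 12.5, 12.2 and 10.5 CPM against 0.700 to 2.59 CPM. Saa3, an acute-phase serum amyloid gene, measured 10.1 to 28.2 CPM against 0.827 to 3.92 CPM. That none of these values overlapped between the sets follows from how the genes were counted.

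The largest gain in CPM was that of Lyz2, the lysozyme gene of monocytes, macrophages and neutrophils, which was named after its values were seen. It averaged 14231 ± 3021 CPM (SD, n = 4) in the rich and 4978 ± 1310 CPM (SD, n = 7) in the poor libraries, a 2.84-fold difference. Further genes with large gains outside the lists were also chosen after their values were seen. Pgd, a dehydrogenase of the pentose phosphate pathway, differed 2.94-fold. C5ar1, the receptor for complement C5a, differed 3.27-fold and Pygl, glycogen phosphorylase, 2.99-fold.

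Levels per length, from the deposited transcripts-per-million (TPM) values, placed the same genes in order within each set. S100a9 ranked 2 of 55487 genes by mean TPM in the rich libraries, at 34777 TPM, and 22 in the poor libraries, at 4985 TPM. S100a8 ranked 4 and 32, Ngp 9 and 35, and Camp 23 and 114. Neutrophil genes were thus among the most abundant transcripts of the poor libraries as well. In the 11 macrophage libraries the median was 0.24 TPM for S100a9 and 0.06 TPM for Ngp. Mmp8 had 50.8 TPM there and Csf3r 151 TPM, close to the 150 TPM of Csf3r in the poor monocyte libraries. A median of at least 1 TPM in macrophages was found for 427 of the 746 higher genes (57.2%), for 99 of the 151 lower genes (65.6%) and for 71.8% of all tested genes.

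The summed level of primary granule genes, which mark the earliest granulocytes, was highest in Monocytes 10. Of 7 members, 5 were tested, and only 1 of them passed the filter in the poor libraries alone. Of these 5, 2 (Ms4a3 and Prss57) were counted higher, beside 4.35% of all genes. Without Monocytes 1, 2 and 7 in the fit, 4 were tested and all 4 were counted. Mpo measured 40.7 CPM in Monocytes 10, but 0.802, 0.0872 and 2.94 CPM in Monocytes 5, 6 and 11, and up to 2.91 CPM in the poor libraries. Elane, neutrophil elastase, measured 5.52, 0.698, 16.8 and 0.873 CPM in Monocytes 5, 6, 10 and 11 and at most 0.711 CPM in the poor libraries. Both genes were highest in Monocytes 10, and for both Monocytes 6 lay within the poor range. Ms4a3 measured 3.18, 1.22, 3.16 and 3.81 CPM, above every poor library and highest in Monocytes 11. The summed primary granule level was 67.9 CPM in Monocytes 10 and 3.84 to 13.8 CPM in the other rich libraries, against 0.685 to 6.24 CPM in the poor libraries, beside specific granule sums of 20806 and 22681 to 27152 CPM. Monocytes 10 also had the highest level of the platelet genes Itga2b (17.9 CPM, against 0.247 to 6.41 CPM in the other libraries) and Ppbp (31.7 CPM, against 4.56 to 15.3 CPM).

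Among 6 granulocyte transcription factors, 2 were counted higher, beside 4.35% of all genes, with a list median of 0.60. Cebpe measured 91.7, 82.6, 76.0 and 62.5 CPM in the rich and 12.4 to 21.5 CPM in the poor libraries, and was named after its values were seen. Cebpd measured 175, 132, 113 and 136 CPM against 21.8 to 39.5 CPM. Cebpa, Cebpb, Spi1 (PU.1) and Gfi1 were not counted. Spi1 measured 826 to 1158 CPM in the rich and 684 to 912 CPM in the poor libraries, a log2 difference of 0.31. Among phagocyte NADPH oxidase genes, which make the enzyme of the respiratory burst, Cybb and Rac2 were among those counted higher, with log2 differences of 1.07 and 1.81. Cyba, a membrane subunit of this enzyme, had 0.08.

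Other granulocytes gave mixed values. Hdc, the histamine-forming enzyme of basophils, mast cells and neutrophils, measured 341, 345, 341 and 366 CPM in the rich and 47.2 to 85.9 CPM in the poor libraries. It was the only basophil list member counted among 5 tested, where 4.35% of all genes were higher and 0.881% lower. The basophil protease genes Mcpt8 and Prss34 reached at most 1.63 and 7.19 CPM in the rich libraries, and in Monocytes 11 measured 0 and 0.414 CPM. Of 8 eosinophil genes tested, Prg2, Siglecf and Alox15 were counted higher and the list median was 0.02. Prg2, an eosinophil granule protein, measured 12.2, 3.27, 32.6 and 3.70 CPM against 1.02 to 2.32 CPM. Siglecf measured 16.5 and 14.6 CPM in Monocytes 5 and 6 (vehicle) and 5.27 and 5.03 CPM in Monocytes 10 and 11 (ox-LDL), against 1.48 to 4.66 CPM. DESeq2 called it lower with ox-LDL, with log2 effects of -1.60 in the rich and -1.15 in the poor set. By edgeR it was not called in either set. Epx, the defining eosinophil peroxidase, did not pass the filter. Ccr3, the eotaxin receptor, had a log2 difference of -0.65. Kit, the 1 mast cell gene tested, had -0.20.

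**Figure D3:**
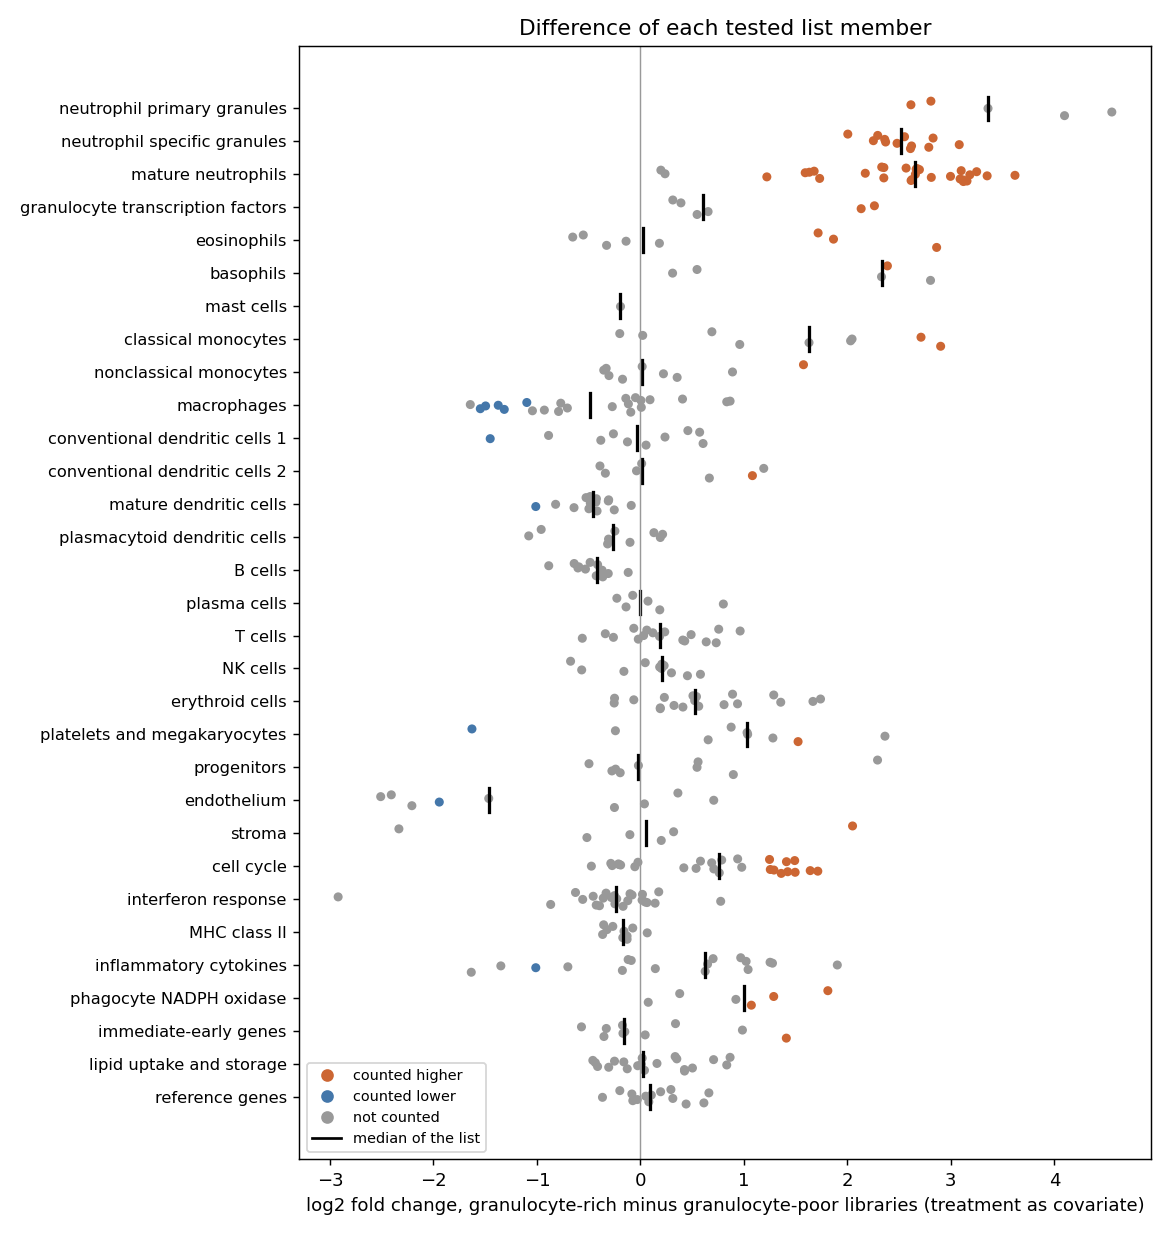
Each point is a tested list member at its fitted log2 difference between rich and poor libraries, coloured by whether it was counted higher, lower or not counted, and the black bar is the median of the list. The medians of the specific granule (2.52) and mature neutrophil (2.66) lists lie far from those of the lymphocyte, dendritic cell and reference lists, while macrophage genes spread to the left with a median of -0.49. The sets were chosen on members of these neutrophil lists.

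Classical monocyte genes, which mark cells recently released from the marrow, were counted higher for 2 of 9 members, beside 4.35% of all genes, with a list median of 1.63. Ly6c2, whose product is the Ly6C antigen, measured 306, 224, 158 and 238 CPM in the rich and 19.9 to 46.9 CPM in the poor libraries. Ifitm6, an interferon-induced membrane protein gene, measured 157, 106, 95.0 and 156 CPM against at most 22.8 CPM, and was named after its values were seen. Ccr2, the receptor for release from the marrow, measured 30.1, 32.2, 20.5 and 23.1 CPM against 8.10 to 20.7 CPM, and was not counted: its log2 difference was 0.96 and Monocytes 10 lay below Monocytes 3. Fn1, F13a1 and Vcan had log2 differences of 2.05, 1.63 and 2.03. Monocytes 5 lay within the poor range for these 3 genes, so they were not counted either. Fn1 measured 359, 275 and 163 CPM in Monocytes 6, 10 and 11, but 81.8 CPM in Monocytes 5 and up to 89.1 CPM in the poor libraries. Ms4a4c and Plac8 had 0.02 and -0.20.

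The classical monocyte sum was 820 to 1038 CPM in the rich and 217 to 358 CPM in the poor libraries. The neutrophil genes were high in the same libraries, and their part in its difference was not tested. Of 9 nonclassical monocyte genes, only Itgal, an integrin subunit of all leukocytes, was counted higher, beside 4.35% of all genes. It measured 205 to 322 CPM against 67.7 to 128 CPM, and the list median was 0.02. Cx3cr1 and Treml4 had log2 differences of 0.22 and -0.30. In all 11 libraries the mature dendritic cell list had a larger sum than the classical monocyte list, at 14081 to 23394 CPM. These lists have 15 and 9 members of unlike abundance and leave out Lyz2, so the sums do not rank the cell types.

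Of 22 macrophage genes, 5 were counted lower and none higher, with a median of -0.49. Of all genes, 0.881% were lower and 4.35% higher. Without Monocytes 1, 2 and 7 in the fit 4 were counted lower, and the median was -0.26. The 5 were Vcam1, Cd5l, Axl, C1qc and Mrc1, named after their values were seen. Vcam1, an adhesion molecule of red pulp macrophages, measured 143, 169, 188 and 183 CPM in Monocytes 5, 6, 10 and 11 and 328 to 682 CPM in the poor libraries. Cd5l, a secreted macrophage protein, measured 148, 173, 245 and 218 CPM against 268 to 755 CPM. Axl, a receptor for the uptake of dying cells, measured 124, 225, 216 and 174 CPM against 375 to 589 CPM. C1qc measured 253, 221, 170 and 200 CPM against 306 to 899 CPM, and its partners C1qa and C1qb had log2 differences of -1.04 and -0.93 with overlapping sets.

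Within the poor set, C1qc and Vcam1 were higher in Monocytes 1, 2 and 7 than in the other 4 libraries. C1qc measured 899, 613 and 629 CPM there and 306 to 443 CPM in the other 4. Cd5l did not divide them in this way, at 755, 534 and 752 CPM beside 671 CPM in Monocytes 8. Plvap, an endothelial gene, measured 10.1 to 10.7 CPM in Monocytes 1, 2 and 7 and 0.665 to 2.20 CPM in every other library, with no value of the rich set apart from the remaining poor libraries. Of the 22 macrophage genes, 16 had negative and 6 had positive log2 differences, beside 8676 negative of 17136 over all genes. The positive ones included Apoe at 0.01, Cd68 at 0.09, Csf1r at 0.41 and Gpnmb at 0.83. The summed macrophage level overlapped, at 12182 to 17631 CPM in the rich and 10910 to 17292 CPM in the poor libraries.

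The 12 lowest genes were Ptprm, Stab2, Pcolce2, Slc45a3, Sh3bgrl2, Slc16a9, Vstm4, Itga9, Slc1a3, Pdgfc, Dmpk and Slc7a2, with log2 differences from -2.15 to -1.70. Ptprm, a receptor tyrosine phosphatase, measured 3.49, 11.3, 16.5 and 10.0 CPM in the rich and 30.5 to 62.6 CPM in the poor libraries. Stab2, a scavenger receptor of sinusoidal endothelium, measured 1.79, 4.38, 6.71 and 3.31 CPM against 8.20 to 24.8 CPM. Itga9, an integrin subunit, measured 9.93, 17.7, 25.4 and 12.2 CPM against 39.8 to 73.2 CPM. Pdgfc, a platelet-derived growth factor gene, measured 2.97, 3.99, 7.02 and 6.41 CPM against 12.9 to 19.5 CPM. For Ptprm, Stab2, Itga9 and Pdgfc, Monocytes 5 was the lowest library of all. The losses were small beside the gains: they summed to 2777 CPM over 151 genes.

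Of the mature dendritic cell genes, all 14 tested had negative differences, with a median of -0.46, but only Il12b met the rule. Over all genes, 8676 of 17136 had negative differences and 0.881% were counted lower. A single gene counted in a list of this size is not read as a result about these cells. Ccr7, the receptor that guides dendritic cells to lymph nodes, measured 5918, 5998, 5532 and 6510 CPM in the rich and 7539 to 8460 CPM in the poor libraries, a log2 difference of -0.42. Cd83 measured 1393 to 1601 CPM against 1982 to 3367 CPM, a difference of -0.82. Il12b, the interleukin-12 p40 subunit, measured 55.2, 53.3, 71.4 and 59.2 CPM against 79.7 to 181 CPM. The sets did not overlap for these 3 genes, as for 10.1% of all genes in either direction, yet only Il12b passed the fold. CPM are shares of a library, and the scaling sets where 0 lies. With scaling to total counts in place of TMM the median over all genes was -0.15, so small values such as those of Apoe, Cyba and Cd68 have no direction.

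Of the conventional dendritic cell genes tested, 10 and 7 per subset, 1 was lower and 1 higher, where 4.35% of all genes were higher and 0.881% lower. Single genes in lists of this size are not read as a result about these cells. Cadm1, an adhesion molecule of the Xcr1-bearing subset, measured 82.1, 83.8, 104 and 101 CPM against 186 to 293 CPM. The defining genes Xcr1 and Clec9a were at most 0.913 CPM in any library. Clec10a, a lectin of the other conventional subset, measured 3.75 to 5.65 CPM against 1.10 to 3.37 CPM. No member was counted among 10 plasmacytoid dendritic cell, 10 MHC class II and 24 interferon response genes. Cd74, the invariant chain, measured 11117 to 15714 CPM against 13982 to 20598 CPM.

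Lymphocyte and red cell genes varied with other divisions of the libraries. None of 14 B cell, 6 plasma cell, 17 T cell, 11 NK cell or 19 erythroid genes was counted, where 4.35% of all genes were higher and 0.881% lower, so counts of 0 in lists of this size lie near the background. The list medians were -0.42, 0.00, 0.19, 0.20 and 0.52. All 14 B cell genes had negative differences, beside 8676 of 17136 over all genes. Without Monocytes 1, 2 and 7 in the fit the medians were 0.36, 0.58, 0.91, 0.61 and 0.18, so the B cell median changed sign. The T and NK cell medians were -0.22 and -0.15 without Monocytes 5. Cd79a, a B cell receptor component, measured 242, 108, 149 and 117 CPM in Monocytes 5, 6, 10 and 11, and 421, 301 and 262 CPM in Monocytes 1, 2 and 7 beside 97.0 to 127 CPM in the other poor libraries. The erythroid sum was 525 to 971 CPM in Monocytes 1, 2 and 7, 9336 to 15263 CPM in Monocytes 3, 4, 8 and 9, and 7116 to 10468 CPM in the rich libraries. The rich libraries thus lay near the latter 4 in their red cell transcripts. Hba-a1 and Hba-a2 are near-identical copies, and their separate values are uncertain.

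Lck, a T cell kinase, measured 54.3 and 45.3 CPM in Monocytes 5 and 10 and 15.4 and 18.8 CPM in Monocytes 6 and 11. The B cell sum separated the same pairs, at 1347 and 1198 CPM against 732 and 751 CPM. Each pair holds a vehicle and an ox-LDL library. Among 9 platelet genes tested, 1 was higher and 1 lower, where 4.35% of all genes were higher and 0.881% lower. The list median of 1.03 became -0.27 without Monocytes 10. Pf4, a platelet chemokine also found in macrophages, measured 97.1, 66.6, 75.4 and 115 CPM against 20.9 to 42.8 CPM. Clec1b measured 4.54 to 9.35 CPM against 11.9 to 32.2 CPM.

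Cell cycle genes were counted higher for 10 of 27 members, with a median of 0.76, and none was lower. Of all genes, 4.35% were higher and 0.881% lower. The counted genes were Hmgb2, Mki67, Cdk1, Ccnb1, Ccnb2, Ccna2, Birc5, Plk1, Ube2c and Cdc20, most of which act in mitosis. Ccnb2, a mitotic cyclin, measured 20.0, 15.4, 15.9 and 22.5 CPM against 3.92 to 7.31 CPM. Mki67, the proliferation antigen, measured 7.90, 8.05, 10.0 and 7.86 CPM against 2.03 to 5.32 CPM. The replication genes Mcm3, Mcm6 and Pcna had log2 differences of -0.27, -0.21 and -0.05. Hmgb2 was highest in Monocytes 5, at 368 CPM, with 164 to 192 CPM in the other rich and 67.1 to 98.7 CPM in the poor libraries. Ccnb2 and Mki67 were chosen after their values were seen.

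Stromal and immediate-early lists, with 6 and 10 genes tested, each had 1 member counted higher. The inflammatory list, with 17 tested, had 1 counted lower, Il12b. Over all genes 4.35% were higher and 0.881% lower. Acta2, smooth muscle actin, measured 67.2, 60.7, 42.1 and 59.1 CPM in the rich and 8.74 to 18.2 CPM in the poor libraries, while the collagen genes Col1a1 and Col1a2 reached at most 1.91 CPM in any library. Fos measured 97.5, 106, 132 and 160 CPM against 23.1 to 73.3 CPM. Il1b, an inflammatory cytokine that was not counted, had a log2 difference of 0.63 at 107 to 170 CPM against 65.4 to 112 CPM. None of 20 lipid uptake and storage genes and none of 14 reference genes was counted, with medians of 0.03 and 0.09. Counts of 0 in lists of this size lie near the shares over all genes.

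The ox-LDL effect was not used to choose the sets, so it was tested within each set and between them. No gene passed an adjusted p of 0.05 for a difference of the effect between the sets in edgeR's quasi-likelihood test (0% called, 715 genes or 4.17% at an unadjusted p under 0.05), and DESeq2 called 2. Within the poor set edgeR called 0 genes (0%), with 2321 or 13.5% at an unadjusted p under 0.05, and DESeq2 called 447. The smallest adjusted p by edgeR there was 0.097. Within the rich set edgeR called 0 (0%), with 1116 or 6.51% at an unadjusted p under 0.05 and a smallest adjusted p of 0.093, and DESeq2 called 59. Without the filter on low counts edgeR called 47 genes for the difference, 617 in the poor and 137 in the rich set, and without Monocytes 10 it called 6 for the difference and 31 in the rich set. Without Monocytes 7 it called 14 in the poor set. The number of genes past a threshold in each set also reflects the 2 against 2 and 4 against 3 libraries.

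The scavenger receptor gene Cd36 measured 241 and 392 CPM with vehicle and 929 and 1177 CPM with ox-LDL in the rich set. In the poor set it measured 218 to 349 CPM with vehicle and 506 to 835 CPM with ox-LDL. The ox-LDL libraries lay above the vehicle libraries in both sets. Its log2 effect was 1.73 ± 0.30 (SE) in the rich and 1.41 ± 0.22 (SE) in the poor set, and the difference of 0.33 ± 0.37 (SE) had an adjusted p of 0.978 in edgeR. Plin2, the lipid droplet coat protein, had effects of 0.98 ± 0.26 and 1.32 ± 0.19 (SE), with a difference of -0.34 ± 0.32. Akr1b8, an aldo-keto reductase, had 1.65 ± 0.30 and 1.45 ± 0.22, with a difference of 0.21 ± 0.37. Mmp12, macrophage elastase, had 1.57 ± 0.29 and 1.24 ± 0.21, with a difference of 0.33 ± 0.35. For these 4 genes the differences were about as large as their standard errors, so a difference of that size was not detectable with these libraries.

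**Figure D4:**
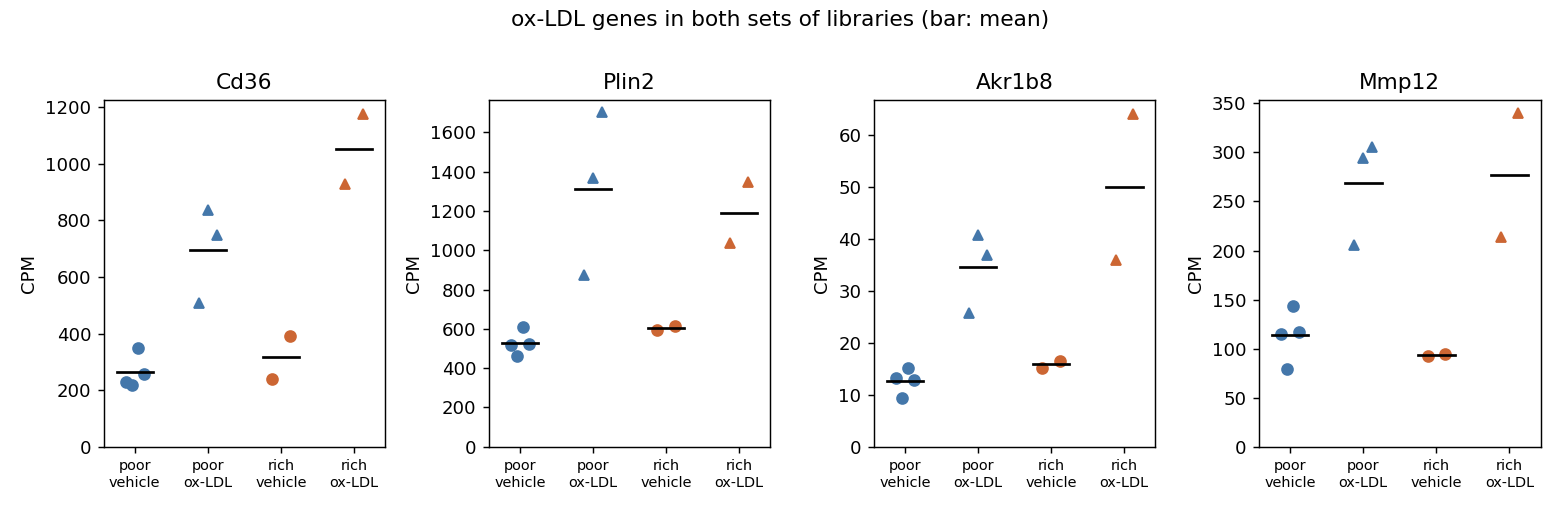
CPM of Cd36, Plin2, Akr1b8 and Mmp12 in each library, with poor libraries in blue, rich libraries in orange, circles for vehicle, triangles for ox-LDL and a bar at the mean of each group. In both sets every ox-LDL library lies above every vehicle library of that set for these 4 genes.

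The 2 genes DESeq2 called for the difference were Gm37645 and Tubb1, named after their values were seen. Tubb1, a platelet tubulin, measured 10.7 CPM in Monocytes 10 and at most 2.48 CPM in any other library. The specific granule and mature neutrophil lists had median ox-LDL effects of -0.06 and -0.14 on the log2 scale in the rich set and -0.04 and -0.11 in the poor set, and 0 of their 41 tested members reached an unadjusted p under 0.05 for the difference.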

How the data were processed

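Per the submitters' processing notes, reads were handled with STAR 2.7.9a and featureCounts 2.0.3 (Subread) on GRCm38. Their roles, the annotation and the strand setting were not stated. The deposited tables hold whole-number counts per gene, unnormalized, and TPM made by the authors from those counts and gene lengths, for 55487 genes in each of 22 libraries. Libraries were made from poly(A) RNA with an ultra-low-input kit, per the labels' protocols. Counts of the 11 monocyte libraries were filtered (filterByExpr by set), scaled by TMM and fitted with treatment as a covariate in edgeR 4.0.16 (limma 3.58.1, R 4.3.3), giving the log2 difference only. ± values are SD unless marked SE. The ox-LDL effects were tested with edgeR's quasi-likelihood F test in a fit of 4 cells (set by treatment), with Benjamini-Hochberg adjustment over 17136 genes and a threshold of 0.05. Where nothing says that libraries came from separate mice, p-values measure only the spread between libraries, which may be technical. The fitting code was tested on simulated counts. Members and lists were chosen with earlier results of these data known. Named genes were the 12 highest and 12 lowest log2 differences among genes counted with a mean of at least 5 CPM (no predicted genes, no antigen receptor segments), the 4 most abundant tested members of each list, the neutrophil list members with at least 5 CPM, and Cd36, Plin2, Akr1b8 and Mmp12. Alternatives were total-count and DESeq2 scaling, DESeq2 1.42.0, no filter, no treatment term, other folds, vehicle or ox-LDL libraries alone, and leaving out libraries. Other list members named in the text were chosen after their values were seen. The list members Il36g and Ahsp had no matching symbol and were not analysed here. Macrophage libraries entered only as TPM. Shares are given as ranges over libraries, without counting intervals.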

Additional observations from a re-analysis of the deposited data

Results flagged for a closer look

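A library was marked as standing apart where its gap to the nearest library of its set, divided by the range of the set, exceeded Dixon's 95% critical value. Of 120 values checked, 6 were marked, and chance alone marks about 1 in 20. The summed primary granule level was 67.9 CPM in Monocytes 10, against 3.84 to 13.8 CPM in the other rich libraries. It was 6.24 CPM in Monocytes 2, against 0.685 to 2.09 CPM in the other poor libraries. The summed NK cell level was 64.0 CPM in Monocytes 5, against 35.2 to 39.7 CPM in the other rich libraries. Monocytes 1 was apart among the poor libraries for Scrg1, at 2.18 CPM against 0.840 to 1.33 CPM, and for Retnlg, at 522 CPM against 372 to 426 CPM. Lhx1 was 10.5 CPM in Monocytes 11, against 12.2 to 12.5 CPM in the other rich libraries.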

How the results depend on the processing

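No gene that the naming rule gave and that was counted as higher or lower changed sign under the alternatives run. List medians did: without Monocytes 1, 2 and 7 that of endothelium went from -1.47 to 0.11 and that of B cells from -0.42 to 0.36. The platelet median went from 1.03 to -0.55 in vehicle libraries alone and to -0.27 without Monocytes 10. The counts of 746 genes higher and 151 lower became 607 and 217 with scaling to total counts (73.7% of the counted genes higher, against 83.2%), and 797 and 161 without Monocytes 1, 2 and 7. Within vehicle libraries they were 1014 and 663, and within ox-LDL libraries 1341 and 453. Fewer libraries separate more readily by their order alone, so these counts are not comparable with the main ones. A fold of at least 1.5 gave 302 lower, and a fold of at least 4 gave 257 higher and 22 lower. Leaving out 1 library gave 738 to 854 higher and 149 to 216 lower. Calls for the difference of the ox-LDL effect, for the poor set and for the rich set, each 0 by edgeR, became 47, 617 and 137 without the filter on low counts, and 2, 447 and 59 with DESeq2; without Monocytes 1, 2 and 7 the poor set had 2. Leaving out 1 library gave 0 to 6, 0 to 14 and 0 to 31, the highest without Monocytes 10, 7 and 10; the cause was not tested. Of list medians, 562 of those recomputed moved by less than a fixed log2 cutoff and 58 moved by more. Values of named genes were set against the spread between libraries instead, and 3204 moved by less and 91 by more. With 2 rich libraries per treatment, differences within the spread were not detectable. No paired analysis was possible because the vehicle and ox-LDL libraries share no replicate numbers, and the sets share none.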
